A study of Mus musculus with 2 samples.

Results

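The regions described here are macroH2A1 peaks that lie past the end of a gene with a known symbol, in the direction in which that gene is transcribed. They were taken from the peak list deposited for mouse embryonic stem cells: every entry that the list classes as downstream of its assigned gene and for which it gives a gene symbol. There were 410 such entries among 2560 (16.0%), assigned to 345 genes. They are 409 distinct regions, because 1 region downstream of Cd209g is listed under 2 peak names. Entries classed as downstream of a gene without a symbol (424) were not members. The entries classed as upstream of a gene with a symbol, 883 at 792 genes, served as the comparison, and 38 genes had peaks in both classes.

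The study mapped the histone variant macroH2A1 by chromatin immunoprecipitation and sequencing in the mouse embryonic stem cell line E14, grown on gelatine with leukemia inhibitory factor and left untreated. It comprised 2 libraries, 1 made with an antibody raised against a part of mouse macroH2A1 and 1 made with IgG as the antibody. With 1 library per antibody there was no replicate, so no test between samples was possible and no p-value is given. The intervals below cover counting over peaks or genes of this 1 library only, and neighbouring peaks are not independent of each other. The list gives positions and gene assignments but no read counts, heights or scores, so the depth behind each peak is unknown, and the identity of the cells cannot be checked against marker genes.

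MacroH2A1 replaces the core histone H2A in some nucleosomes and carries a large globular macro domain on its tail side. It is best known for its accumulation on the inactive X chromosome and at silent genes, and it often covers broad domains of repressed chromatin. Stretches past the ends of genes hold transcription termination sites, untranscribed spacer and distal enhancers, and those around developmental regulators are often long and rich in conserved elements.

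Because each peak was assigned to the gene with the nearest start, a peak in the downstream class has the whole length of its gene between itself and that start. The class is thus open more easily to short genes than to long ones, by construction, and the comparisons of gene length and distance below are descriptions of the list as deposited.

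Most of these peaks were not close to the gene end. The gap from the gene end to the nearest base of the peak had a median of 28.9 kb (95% interval 24.7 to 36.7 kb, interquartile range 10.5 to 76.9 kb). Of the 410 peaks, 14 (3.41%, Wilson 95% interval 2.04 to 5.65%) lay within 1 kb of the end, 51 (12.4%, 9.59 to 16.0%) within 5 kb and 102 (24.9%, 20.9 to 29.3%) within 10 kb. A further 154 (37.6%) were 10 to 50 kb past the end, 76 (18.5%) were 50 to 100 kb past it, and 78 (19.02%) lay beyond 100 kb. The extremes were 167 bp and 1563 kb.

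The gaps before the gene start in the upstream class were somewhat shorter, with a median of 23.0 kb (19.6 to 25.7 kb). The difference of the medians was 5.95 kb, with an interval of 0.89 to 14.4 kb. Within 5 kb of the gene edge they face lay 12.4% of downstream peaks, against 18.3% of upstream peaks (162 of 883). The difference was -5.91 percentage points (-9.83 to -1.62). Within 10 kb the shares were 24.9% and 28.0%, and the interval of the difference, -8.08 to 2.16 percentage points, included 0. Between 10 and 50 kb the downstream class held fewer of its peaks, 37.6% against 43.4% (difference -5.81 percentage points, -11.4 to -0.04). Between 50 and 100 kb the downstream class held more of its peaks, 18.5% against 13.3% (difference 5.29 percentage points, 1.07 to 9.84).

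**Figure D1:**
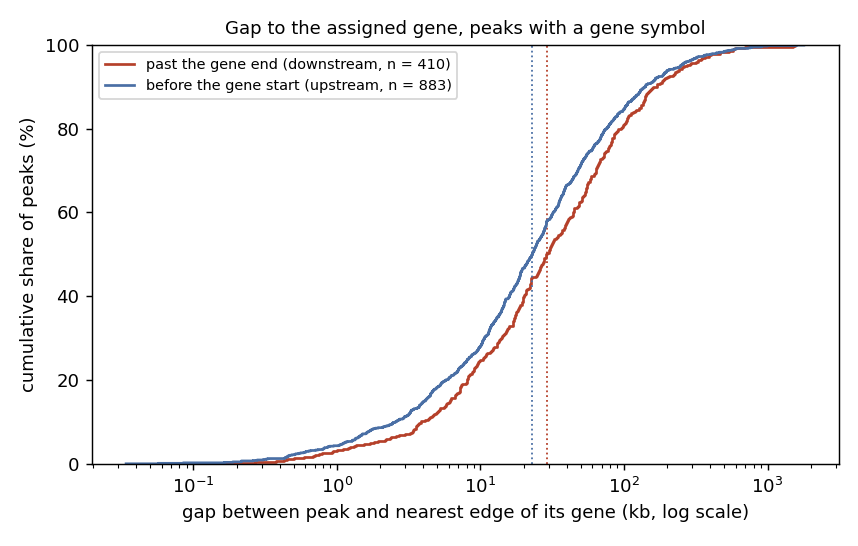
Cumulative share of peaks (%) against the gap in kb (log scale) between the peak and the edge of its assigned gene that it faces, for 410 downstream peaks (red, gap past the gene end) and 883 upstream peaks (blue, gap before the gene start). The dotted lines mark the medians, 28.9 and 23.0 kb, and the red curve lies to the right of the blue one over most of the range.

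The peak closest to a gene end lay 167 bp past Ncaph, which encodes a subunit of the condensin I complex, on chromosome 2 (126928050 to 126929400; all peak coordinates are in the mouse build mm9, as deposited). The next was 270 bp past Btn1a1, the butyrophilin gene of milk fat, and the third 377 bp past Tes, a gene for a LIM-domain protein of cell adhesions. These 3 genes have no common role. The next pair were at homeobox genes. A peak of 1151 bp lay 431 bp past Nkx3-2, a regulator of cartilage and the axial skeleton, on chromosome 5 (42151300 to 42152450). A peak of 1951 bp lay 452 bp past Hoxa13, which patterns the distal limb and the genital tubercle, on chromosome 6 (52206450 to 52208400).

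The remaining peaks among the 10 closest were assigned to 2010109A12Rik (500 bp), Ly86 (587 bp), Olfr62 (678 bp), Klhl34 (699 bp) and 2010107G23Rik (754 bp). Ly86 encodes a secreted partner of a Toll-like receptor relative, and Olfr62 is an odorant receptor gene. At the other edge of the class stand the peaks that touch the gene end and are therefore classed separately in the list. There were 16 of these, 11 of them at genes with a symbol, among them Shh, the hedgehog ligand (chromosome 5, 28783200 to 28784550), and Fmod, a matrix proteoglycan gene. These examples were chosen after their values were seen.

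At the far end of the order, 7 peaks (1.71%) lay more than 500 kb past the gene. The greatest gap was 1563 kb, past Olfm4, an olfactomedin gene known from intestinal stem cells, on chromosome 14 (81985650 to 81986750). D3Ertd751e on chromosome 3 had peaks at 1512 and 575 kb. In the gene order of RefSeq (assembly GRCm38.p6, used for gene order only) the next protein-coding gene past D3Ertd751e is Pcdh10, and past Olfm4 it is Pcdh17, both protocadherin genes. The other 7 of the 10 farthest were past Acot10 (694 kb), Rab28 (595 kb), Pdha2 (573 kb), Rnf144a (537 kb), Tcfec (467 kb), Rap2b (467 kb) and Tshz3 (404 kb). Rab28 and Rap2b encode small GTPases, Pdha2 the testis form of a pyruvate dehydrogenase subunit, Tcfec a relative of Mitf, and Tshz3 a zinc finger transcription factor. All 10 of these peaks were 1101 to 1651 bp wide.

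The genes themselves were short. Counting each gene once, the median length was 10.1 kb (8.70 to 12.9 kb, interquartile range 3.85 to 34.0 kb), against 31.0 kb (27.5 to 36.1 kb) in the upstream class. The difference of the medians was -20.9 kb (-26.1 to -16.4 kb). Genes of at most 5 kb made up 29.9% of the downstream genes (103 of 345) and 15.2% of the upstream genes (120 of 792), and genes over 100 kb made up 7.54% (26) and 24.2% (192). Among peaks 10 to 50 kb from the gene start, a range in which a downstream peak requires a gene shorter than that distance, the medians were 7.30 kb (6.29 to 8.65 kb, 129 genes) and 32.9 kb (26.5 to 40.7 kb, 361 genes).

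For 267 of the 410 peaks (65.1%) the gap past the end was longer than the gene, and the median ratio of gap to gene length was 2.35. Across these peaks, gap and gene length were weakly related (Spearman's rho = 0.22, n = 410), as were the gap before the start and gene length across upstream peaks (rho = 0.24, n = 883). Peaks are not independent samples, so these coefficients are descriptions. The shortest genes were Gm10161 (listed with a second symbol, 210 bp), Gm16417 (281 bp) and Gm5745 (listed with Gm12995, 315 bp). Next came 1810011O10Rik, now Tcim (321 bp), and 1700025H01Rik (363 bp). All of these carry predicted or clone names in the list.

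The longest were Trhde (402 kb), which encodes an enzyme that degrades thyrotropin-releasing hormone, Ntrk2 (326 kb), the receptor of brain-derived neurotrophic factor, Epha3 (321 kb), an ephrin receptor gene, Nxph1 (298 kb), a gene for a neurexin ligand, and Dnahc5 (268 kb), an axonemal dynein gene. The peak past Ntrk2 lay only 4.37 kb beyond its end and that past Trhde 13.7 kb beyond. Those past Epha3 (137 kb), Dnahc5 (241 kb) and Nxph1 (389 kb) were distant. Ntrk2 also had 2 peaks inside the gene.

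**Figure D2:**
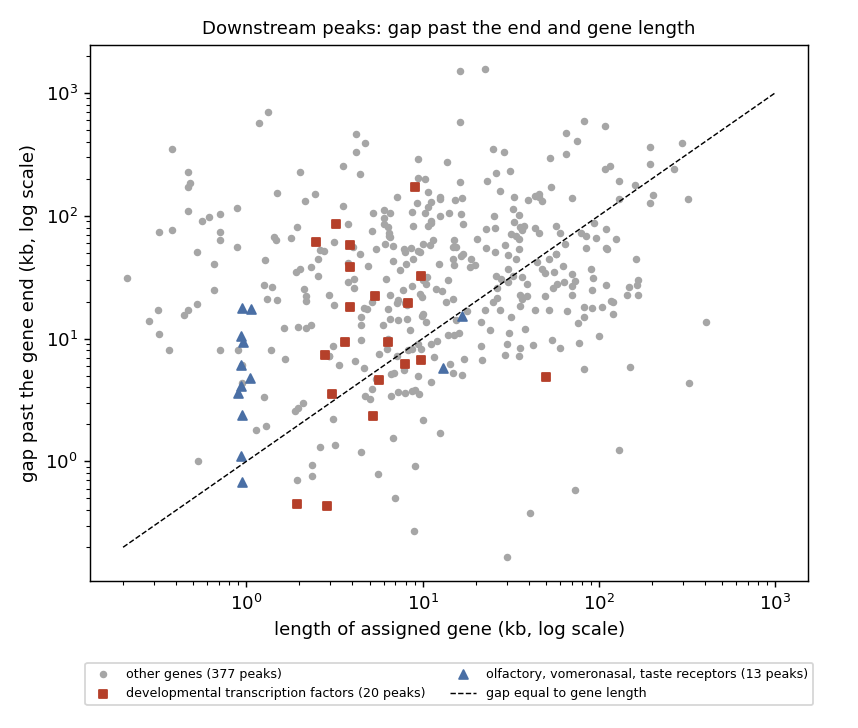
Gap past the gene end (kb, log scale) against the length of the assigned gene (kb, log scale), 1 point per downstream peak. Red squares are the 20 peaks of developmental transcription factor genes, blue triangles the 13 peaks of sensory receptor genes, grey points all others, and the dashed line marks a gap equal to the gene length, above which 267 of all 410 peaks lie.

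In width, the downstream peaks did not stand apart from the upstream ones. The median was 1601 bp in both classes (1551 to 1651 bp downstream, 1551 to 1601 bp upstream), and the interval of the difference was -50 to 71 bp. Peaks wider than 2 kb were 16.6% (68 of 410) of the downstream and 16.0% (141 of 883) of the upstream peaks (difference 0.62 percentage points, -3.55 to 5.13). Within the downstream class, width was close to unrelated to the gap (Spearman's rho = -0.05) and to gene length (rho = 0.04). These peaks together covered 662 kb.

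The widest, 4151 bp, lay 3.59 kb past Myl10, a myosin light chain gene, on chromosome 5 (137180550 to 137184700), and the gene had a second peak of 1451 bp 50.9 kb past its end. Next came the region listed under 2 names downstream of Cd209g, a C-type lectin gene (3201 bp, gap 7.25 kb). A peak 4.87 kb past Tbx5, the T-box gene of heart and forelimb, was 2951 bp wide. A peak 17.0 kb past the predicted gene Gm5745 was 2901 bp wide. Peaks of 2851 bp lay 5.76 kb past Pim1, a proto-oncogene kinase induced by leukemia inhibitory factor signalling, 26.6 kb past Bmp7 and 81.4 kb past Pabpc6. The width of 2701 bp was reached past Tnfrsf19 and past Mchr1, the receptor of melanin-concentrating hormone.

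Peaks assigned to genes of the developmental transcription factor list lay nearer to the gene end than the other downstream peaks. The margin was smaller among genes of like length, and no interval of that difference was formed. The list, which includes the Hox genes, is not complete. Regulators of development that it lacks count among the other peaks, some near the gene end, such as Foxi3 (1.19 kb) and Lbx2 (2.57 kb). Others are far, such as Sox2 (149 kb) and Lmx1a (178 kb), so the contrast holds for the list as written. These examples were chosen after their values were seen. The list had 17 of the 345 downstream genes (4.93%, 3.10 to 7.75%) and 24 of the 792 upstream genes (3.03%, 2.04 to 4.47%). The difference was 1.90 percentage points, and its interval, -0.43 to 4.89, included 0. Among genes of at most 5 kb, the shares were 7.77% (8 of 103) and 7.50% (9 of 120). For genes over 5 and up to 20 kb they were 6.78% (8 of 118, 3.48 to 12.8%) and 3.11% (6 of 193, 1.43 to 6.62%). For longer genes they were 0.81% (1 of 124) and 1.88% (9 of 479).

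These 17 genes had 20 downstream peaks, of which 11 (55.0%, 34.2 to 74.2%) lay within 10 kb of the gene end, against 91 of the 390 other downstream peaks (23.3%, 19.4 to 27.8%). The median gap was 9.41 kb (4.87 to 32.2 kb) against 30.3 kb (25.7 to 38.1 kb). The list's genes are short, with a median of 5.21 kb. Among genes of at most 20 kb, 10 of 19 peaks of the list (52.6%, 31.7 to 72.7%) and 74 of 247 other peaks (30.0%, 24.6 to 35.9%) were within 10 kb. These intervals overlap, but each belongs to a single share, so their overlap does not decide whether the shares differ. Among genes of at most 5 kb, the counts were 5 of 10 and 37 of 114 (32.5%), and the median gaps were 13.7 kb (0.45 to 61.5 kb) and 20.8 kb (15.6 to 31.2 kb), also with overlapping intervals. Of the 27 upstream peaks of the list, 7 (25.9%, 13.2 to 44.7%) lay within 10 kb of the start.

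After Nkx3-2 and Hoxa13, the next gaps in the list were those of Mnx1, a motor neuron and pancreas homeobox gene (2.35 kb), Hoxb13, which acts in the tail and prostate (3.54 kb), and Foxf2, a forkhead gene of mesenchyme (4.58 kb). The Hoxb13 peak (chromosome 11, 96062300 to 96064050) had a counterpart 1.45 kb before the gene start, so that peaks flanked this 3.06 kb gene. Tbx5 followed at 4.87 kb, and Lhx3, a LIM-homeobox gene of the pituitary, at 6.20 kb.

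Otx2, a homeobox gene of forebrain and midbrain, had peaks 6.70 and 32.2 kb past its end on chromosome 14 (49268950 to 49270650 and 49243800 to 49245200). Foxe1, the thyroid forkhead gene, had a peak at 7.37 kb. Pou4f2, which acts in retinal ganglion cells, and Pitx1, which specifies the hindlimb, had peaks at 9.41 and 9.42 kb.

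Uncx (3.85 kb long), whose homeodomain protein patterns the vertebrae, had peaks at 18.1, 38.2 and 57.8 kb, about evenly spaced, and 1 upstream peak. Sox11, a neuronal differentiation factor, had a peak 19.4 kb past its end and another 17.8 kb before its start, and En1, the engrailed gene of midbrain and hindbrain, had 1 at 22.3 kb. The farthest of the list were Neurog2, a proneural gene (61.5 kb), Barx1, a homeobox gene of stomach and teeth (85.3 kb), and Tcfap2c, now Tfap2c, a regulator of trophoblast and germ cells (171 kb). The peaks of Barx1 lay on both sides, that upstream being 1.19 kb before the start.

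Further regulators of development outside the list also had downstream peaks; they were picked after their values were seen. Foxi3, a forkhead gene of ectodermal organs, had a peak 1.19 kb past its end, Lbx2 2.57 kb, and Rax, the eye-field homeobox gene, 9.64 kb past its end, with a second peak 3.76 kb before its start. Nhlh2, a helix-loop-helix gene of the hypothalamus, had a peak at 14.9 kb, and Id4, an inhibitor of helix-loop-helix factors, at 52.8 kb. Sall1, a kidney and limb zinc finger gene, had peaks at 48.7 and 85.3 kb. Lmx1a, which acts in dopaminergic neurons, had a peak 178 kb past its end and another 29.3 kb before its start.

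Peaks past the end of a gene can also lie near the next gene along the chromosome. Neither the strand of that next gene nor its distance was used in the counts below. Whether a peak faces its start or its end was therefore not tested. Of 319 downstream genes placed in the RefSeq order, 16 (5.02%, 3.11 to 7.99%) had a developmental transcription factor gene as the next protein-coding gene past their end, and 13 of these were not in the list themselves. On the side of the peak, the next gene was in the list for 19 of 717 upstream genes (2.65%, 1.70 to 4.10%). The interval of the difference, -0.03 to 5.49 percentage points, included 0. The list holds 1.14% of all protein-coding genes (246 of 21631).

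Such pairs included Tmem174 with Foxd1 (gap 0.93 kb past Tmem174), Insig1 with En2 (14.1 kb), Syf2 with Runx3 (14.3 kb), Tas1r2 with Pax7 (15.2 kb) and Clic5 with Runx2 (17.8 kb). More distant ones were Drd1a with Msx2 (55.4 kb), Irf8 with Foxf1 (64.8 kb), Mrm1 with Lhx1 (68.4 kb) and 1700018B08Rik with Foxl1 (87.0 kb). Bmp7 and Tcfap2c are each the next gene past the other's end, so the 2 peaks past Bmp7 and the 1 past Tcfap2c lay in 1 interval between converging genes on chromosome 2.

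The list of secreted developmental signals, receptors and antagonists had 4 downstream genes with 6 peaks (1.16% of downstream against 1.39% of upstream genes). Sfrp5, a secreted Wnt antagonist, had a peak 6.61 kb past its end, and Fgf18, a growth factor of skeleton and lung, had 1 at 9.08 kb. Bmp7, a bone morphogenetic protein of kidney and eye, had peaks at 26.6 and 33.5 kb (chromosome 2, 172665700 to 172668550 and 172659600 to 172661700), which were 4 kb apart. Inhbb, which encodes a subunit of activin B, had peaks at 42.4 and 56.4 kb. The next protein-coding gene past the end of Inhbb is Gli2, a transcription factor of the hedgehog pathway. Outside the list, Spry1 and Spry4, feedback inhibitors of fibroblast growth factor signalling, had peaks at 17.7 kb and at 39.4 and 64.0 kb. They were chosen after their values were seen.

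Among pluripotency genes 1 of 345 downstream genes was listed, Sox2, with a peak 149 kb past its end, against 9 of 792 upstream genes (0.29% and 1.14%; difference -0.85 percentage points, -1.88 to 0.59). The list of histones and chromatin regulators, which is not complete, had no gene in the downstream class and 7 in the upstream class. Genes of this kind that it lacks had downstream peaks, among them Mbd2, which encodes a reader of methylated DNA (27.6 kb past the end), and Scml4, a relative of Polycomb group genes (10.5 kb). They were chosen after their values were seen. For the list as written, a count of 0 of 345 has a Wilson upper limit of 1.10%, and the difference was -0.88 percentage points (-1.81 to 0.31). Imprinted genes had Mkrn3 (12.3 kb) and fibroblast or feeder markers had Vim, the vimentin gene (82.2 kb).

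Sensory receptor genes had the shortest gaps of all lists with at least 4 genes. The list of olfactory, vomeronasal and taste receptors had 13 downstream genes (3.77%, 2.22 to 6.34%) and 11 upstream genes (1.39%, 0.78 to 2.47%), a difference of 2.38 percentage points (0.49 to 5.02). Their median length was 0.95 kb, and among genes of at most 5 kb the shares were 10.7% (11 of 103, 6.07 to 18.1%) and 7.50% (9 of 120, 4.00 to 13.6%), with overlapping intervals. The median gap was 5.73 kb, all 13 peaks lay between 0.68 and 17.7 kb of the gene end, and 9 were within 10 kb. Gaps of this list were also short in the upstream class. Its 11 upstream peaks had a median gap of 10.3 kb, with 5 within 10 kb, against a median of 23.0 kb for all upstream peaks.

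Olfr62 and Olfr1339, both on chromosome 4, had peaks 0.68 and 2.37 kb past their ends, 69 kb apart. Olfr193 had a peak at 1.11 kb, the vomeronasal receptor gene V1re5 at 3.59 kb, Olfr916 at 4.09 kb, Olfr111 at 4.76 kb, Vmn2r10 at 5.73 kb and Olfr234 at 6.06 kb. For 7 of the 12 of these genes found in the RefSeq order, the next protein-coding gene past the end was a receptor of the same list. Olfactory receptor genes are known to stand in dense clusters. The distance to the next gene was not measured here, and whether it bears on the short gaps was not tested.

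Adhesion and axon guidance genes lay at the other end. Their 8 downstream genes had 12 peaks with a median gap of 78.5 kb, and none was within 10 kb. Efnb2, an ephrin of arteries and axons, had peaks at 17.1 and 79.6 kb. Ajap1, a gene for an adherens junction protein, had peaks at 27.3, 54.5 and 77.3 kb and 3 more upstream. Sema4f, a semaphorin gene, had a peak at 30.4 kb, Pcdh10 at 44.0 kb, Cdh26 at 82.8 kb, Cldn23, a tight junction gene, at 116 kb, and Epha3 at 137 kb. Cdh10, a cadherin gene of the brain, had peaks at 261 and 364 kb. In the upstream class, the 30 peaks of this list had a median gap of 139 kb, with 5 within 10 kb.

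Transporter genes had 7 downstream members by the symbol rule, with a median gap of 72.6 kb. Slc27a3, a fatty acid transport gene, had a peak at 3.41 kb, Aqp3, a water and glycerol channel gene, at 4.71 kb, Slco1b2 at 48.6 kb, Tmem20 (now Slc35g1) at 51.0 kb and Atp6v1h, a proton pump subunit gene, at 72.6 kb. Slc39a10, a zinc transporter gene, had peaks at 142 and 151 kb. The seventh, Xrcc6bp1, matched only through its current symbol Atp23 and is not a transporter gene. It had peaks at 89.1 and 142 kb, both counted in the median of 72.6 kb, which is therefore that of the list and not of transporter genes alone.

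Ion channel genes had 6 members, each with 1 peak, with a median gap of 39.7 kb. Among them, Kcnj4, an inward rectifier, had a peak 8.75 kb past its end, Kcnk16 25.0 kb, Kcnv1 54.4 kb, Kcnk1 102 kb and Kcnc2 128 kb. The G protein-coupled receptor list, which lacks members of the class such as Mchr1, Ptgdr, Cckar, Nmbr and Gprc5b that also had downstream peaks, had Cxcr4, the receptor of a stem cell homing chemokine (26.0 kb), Hrh2, a histamine receptor (36.9 kb), Adra2a, an adrenergic receptor (41.0 and 84.9 kb), and Drd1a, a dopamine receptor (55.4 kb).

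The list of zinc finger genes, which lacks members of the class such as Tshz3 and Sall1, had 8 genes with a median gap of 38.2 kb. Zfp352 was closest (5.26 kb), followed by Zfp365 (26.0 kb), Zfp612 (27.6 kb), Zfp664 (32.3 kb), Zfp217 (44.1 kb), Zfp238, now Zbtb18 (59.1 kb), Zfp438 (64.4 kb) and Zfp36l1 (105 kb). Zfp217 also had a peak 27.7 kb before its start.

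The small lists were small GTPases and their regulators (Rhou at 15.2 and 21.7 kb, Rap2b and Rab28), matrix genes (Fbln2 at 8.42 kb and Adamts15 at 193 kb) and cytokine-related genes. The last list held only Tnfrsf19, and it lacks the chemokine receptor gene Cxcr4, which was counted with the G protein-coupled receptors. The ribosomal protein rule named 4 genes. Of these, the entries of Rps26 (12.4 kb) and Rpl12 (18.4 kb) also give symbols of near-identical copies, and the list does not say which copy is meant. By symbol and chromosome, the first matched Rps26 itself, whereas the second matched Gm6336 and not Rpl12. Gm5520 (97.5 kb) is a pseudogene, and Rps6kc1 (44.5 kb) is a kinase gene matched by its name. No microRNA or small nucleolar RNA gene with a symbol was among the 345 or the 792. Predicted and clone-named genes were 74 of the downstream genes (21.4%) and 126 of the upstream genes (15.9%), a difference of 5.54 percentage points (0.70 to 10.7). The rule takes any symbol of an entry, so it also caught established genes with a further, provisional symbol, such as Eno1, Ran and Spry1. The median length of the list's genes was 3.62 kb downstream and 14.3 kb upstream, and no comparison among genes of like length was made. The closest of them were 2010109A12Rik, 2010107G23Rik, Gm9104 (1.00 kb), Gm2058 (1.81 kb), 1700067P10Rik (1.93 kb), 8430408G22Rik (3.00 kb), Lypd5 (3.23 kb, caught by its second, provisional symbol) and Gm9034 (3.33 kb). The entry of Gm9034 also lists copies, and by symbol and chromosome it matched Gm2606.

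By RefSeq gene type, 300 of the 319 downstream genes with a single symbol and a match were protein-coding (94.0%, 90.9 to 96.2%), 10 were pseudogenes and 9 long non-coding RNA genes. In the upstream class 692 of 718 (96.4%) were protein-coding, and the interval of the difference, -5.69 to 0.33 percentage points, included 0.

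**Figure D3:**
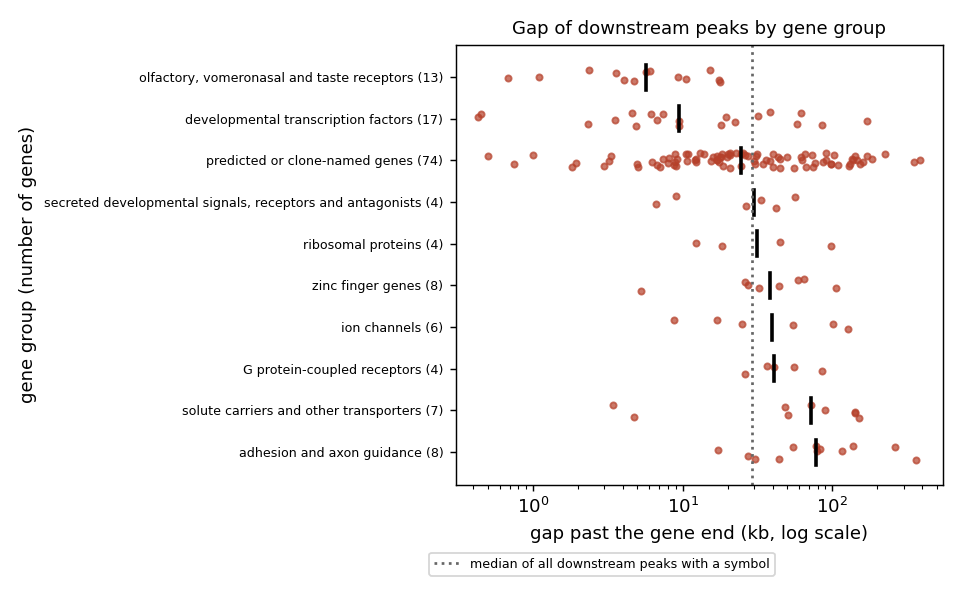
Gap past the gene end (kb, log scale) of each downstream peak, for the gene groups with at least 4 genes, whose numbers are in brackets. Black bars are group medians and the dotted line is the median of all 410 peaks, 28.9 kb. The sensory receptors (5.73 kb) and the developmental transcription factors (9.41 kb) have the lowest medians, and the adhesion and axon guidance genes (78.5 kb) the highest.

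Another peak of the list, of any class, lay within 10 kb of 41 of the 410 (10.0%, 7.46 to 13.3%) and of 50 of the 883 upstream peaks (5.66%, 4.32 to 7.39%), a difference of 4.34 percentage points (1.26 to 7.89). Among peaks wider than the list's median the difference was 3.82 percentage points, with an interval of -0.78 to 9.26 that included 0. Within 50 kb the shares were 26.3% (108) and 20.4% (180), a difference of 5.96 percentage points (1.06 to 11.1). Both peaks of a close pair are counted, so the intervals are too narrow. Of the 345 genes, 56 (16.2%, 12.7 to 20.5%) had at least 2 downstream entries, against 75 of 792 (9.47%, 7.62 to 11.7%) with at least 2 upstream entries. With the region of Cd209g counted once, 55 genes had at least 2. There were 48 genes with 2, 7 with 3 and 1 with 4.

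The gene with 4 was 5830454E08Rik, a transcript of 0.71 kb on chromosome 9, with peaks from 8.11 to 103 kb past its end. The genes with 3 were Tnfrsf19, Uncx, Ajap1, Cryba4, Ttll7, 1700018B08Rik and 1700029F12Rik. Tnfrsf19, a member of the tumour necrosis factor receptor family, had peaks at 5.66, 15.0 and 18.2 kb on chromosome 14, all within 14.3 kb, and the farther pair (61562800 to 61564550 and 61565000 to 61567700) was only 0.45 kb apart. Cryba4, a lens crystallin gene, had peaks at 85.6, 95.4 and 112 kb, on its side towards Mn1, a gene needed for the skull bones. Mn1 itself had peaks 22.2 and 27.7 kb past its end, and its next gene is Cryba4, so these 5 peaks lay in 1 interval between converging genes. Ttll7, a tubulin glutamylase gene, had peaks at 1.24, 137 and 191 kb and 1 inside the gene.

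Of the genes with 2 downstream peaks, those with the smallest mean gap after Cd209g were Spink2 (13.7 kb), a protease inhibitor gene, Ly86 (14.9 kb), Gm9034, which is listed with copies (15.4 kb), 1110038F14Rik (16.2 kb), Ptgdr (16.7 kb), a prostaglandin receptor gene, Insig1 (17.4 kb), a regulator of sterol synthesis, Gm239 (17.9 kb), Rhou (18.4 kb) and Otx2 (19.4 kb). The peaks of Ptgdr were 3.20 kb apart, those of Gm239 1.85 kb and those of Rhou 4.30 kb. Insig1 also had 2 upstream peaks, at 32.6 and 68.4 kb. Another close pair belonged to different genes: the peak 24.8 kb past Mfhas1 and the peak 116 kb past Cldn23 lay 1.55 kb apart on chromosome 8.

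**Figure D4:**
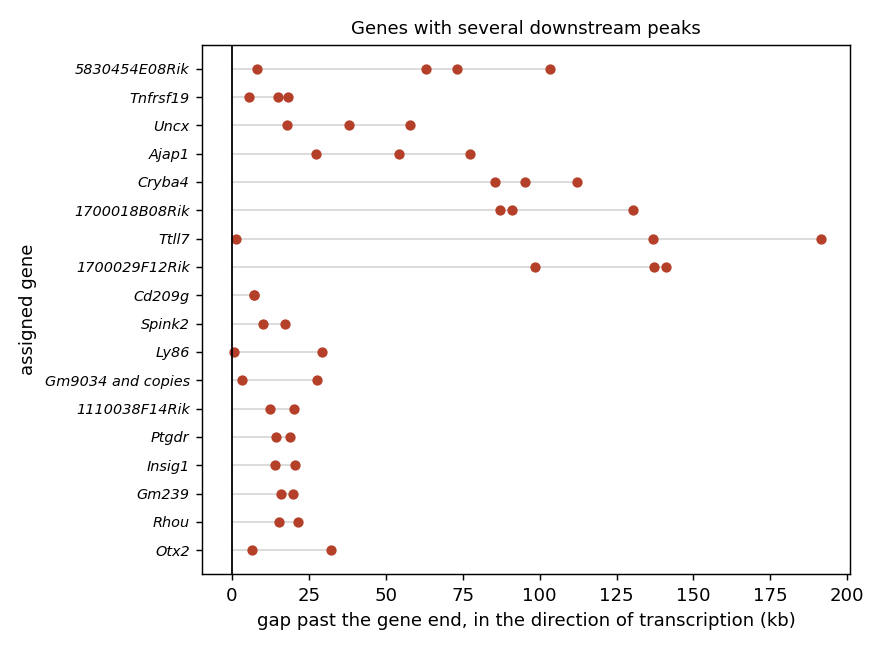
Gap past the gene end (kb), in the direction of transcription, of each downstream peak for the 8 genes with 3 or more such peaks and the 10 genes with 2 and the smallest mean gap. The vertical line marks the gene end and each point is 1 peak. Peaks of Tnfrsf19 lie within 18.2 kb of the gene end, whereas those of Cryba4 begin at 85.6 kb, and Cd209g shows 1 point because its 2 entries are 1 region.

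Of the 345 genes, 46 also had a peak of another class: 38 had an upstream peak, 8 a peak inside the gene and 1 a peak over its start. Tbx5 is counted under both of the first, with 1 upstream peak and 3 inside. Examples of peaks on both sides, chosen after their values were seen, were Hoxb13, Rax, Sox11, Uncx, Pim1 (5.76 kb past and 18.5 kb before) and Dact1, a modulator of Wnt signalling (29.8 kb past and 3.97 kb before). Cbln4, a synaptic organiser gene, had a peak 0.43 kb before its start and another 141 kb past its end.

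Among the peaks, 10 of 410 lay within the span of another gene of the list, so that the assigned gene is only the one with the nearer start. The 2 peaks of the predicted gene Gm6588 lay inside Sez6l, a neuronal membrane protein gene, the wider (2451 bp) 84.9 kb from its start. The Neurog2 peak (2351 bp) lay inside Alpk1, a kinase gene, 81.0 kb from its start. The farther peak of Nts, the neurotensin gene (1851 bp), lay inside Mgat4c, and the peak of 4632428N05Rik (1801 bp) lay inside Cdh23, a cadherin gene of inner ear hair cells. The others were in Rbpms, Odz3, Dnahc7b (2 peaks of Slc39a10) and Flt1. Only genes that have a peak in the list could be searched, so the number is a minimum.

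Downstream peaks were found on chromosomes 1 to 19 and X in about the proportion of the upstream ones. Over all chromosomes, 31.7% (29.2 to 34.3%) of the peaks in the 2 classes were downstream. Chromosome 5 had the most, 44 (34.4%, 26.7 to 43.0%), followed by chromosome 8 with 31 (33.3%), chromosome 10 with 30 (33.0%) and chromosome 3 with 28 (35.4%). The share was highest on chromosome 14 (21 peaks, 40.4%, 28.2 to 53.9%). On chromosome 2 it was 20.3% (15 downstream and 59 upstream, 12.7 to 30.8%), the only 1 of the 20 intervals that did not hold the overall share. Among 20 independent intervals at the 95% level, 1 miss would occur on average. Neighbouring peaks are not independent, the overall share includes chromosome 2, and the cause of its low share was not tested. Chromosome 11 had a similar share (10 peaks, 20.0%, 11.2 to 33.0%).

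Chromosome X had 2 downstream peaks and 9 upstream ones. They lay 0.70 kb past Klhl34, a kelch-like gene (154259000 to 154260600), and 4.35 kb past Magea4, a melanoma antigen gene (69472650 to 69474200). The assigned genes were on the plus strand for 220 downstream peaks (53.7%) and 478 upstream peaks (54.1%), a difference of -0.48 percentage points (-6.31 to 5.32).

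**Figure D5:**
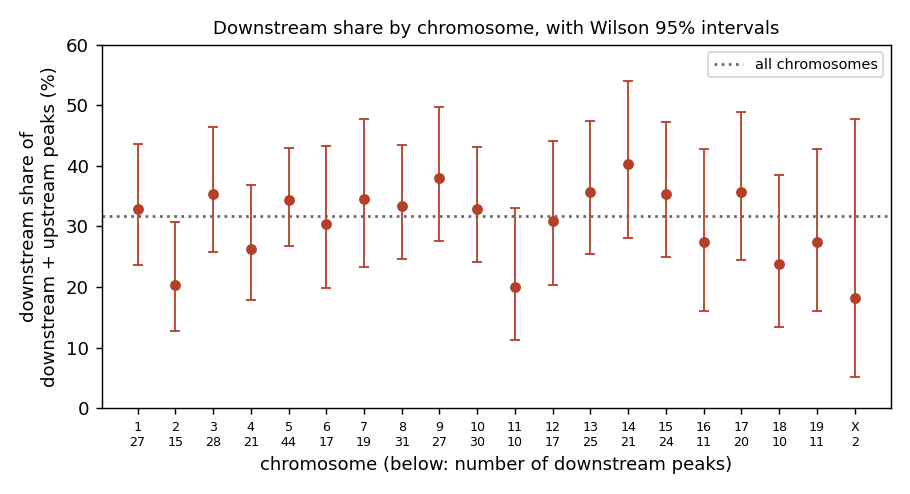
Share of downstream peaks among downstream and upstream peaks with a gene symbol (%) on each chromosome, with Wilson 95% intervals; the number of downstream peaks stands under each chromosome. The dotted line is the share over all chromosomes, 31.7%, and only the interval of chromosome 2 (12.7 to 30.8%) lies off it.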

How the data were processed

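One macroH2A1 and 1 IgG library were made from E14 cells; only the macroH2A1 peak list was analysed. The submitters' processing notes name Bowtie and the build NCBIM37 (mm9), and the deposited entries carry names that begin with CCAT and were assigned by nearest gene start. For the caller's settings, its control and any filter, the sources used here give nothing. The deposited values are positions, widths and distances in bp; all starts and ends are multiples of 50 bp and the narrowest peak is 1051 bp.

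Gaps were recomputed from the deposited coordinates with regard to strand and equalled the deposited shortest distance in all 410 downstream and 883 upstream entries. Medians have order-statistic 95% intervals, shares Wilson intervals, and differences were formed from these by the square-and-add (Newcombe) method; the code was tested on simulated data (Python 3.11.15, pandas 2.3.3, scipy 1.17.1). Symbols were matched to RefSeq genes through current symbols and synonyms, requiring the same chromosome (339 of 345 downstream and 778 of 792 upstream genes). The 19 gene lists are sets of symbols and name patterns. Members, lists and comparisons were chosen with earlier results of these data known. Named genes were the 10 closest and 10 farthest peaks, the 10 widest, genes with 3 or more peaks and 10 with 2, the 5 shortest and 5 longest genes, up to 8 genes per list, all peaks on chromosome X and the 5 widest peaks inside another gene. For the neighbouring gene, only the order of genes in GRCm38.p6 was used. No sequence of the peaks is given, because no genome of build mm9 was used here. A few genes that this rule names are not reported here.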

Additional observations from a re-analysis of the deposited data

How the results depend on the processing

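Of 47 alternative values for 11 results, 43 stayed close to the main value: within its interval or, for the 2 results that are plain counts, within 1 of it. The strand difference, whose interval includes 0, was 1.55 percentage points among the wider peaks against -0.48 in all. The settings were peaks wider than the list's median, entries with 1 symbol, chromosome 5 left out, midpoints, 1 peak per gene, a distance range and, added after seeing the data, the doubly listed region counted once and all settings for the share with another peak within 10 kb. With 1 peak per gene, the closest, the median gap was 22.7 kb, a setting that can only drop the longer gaps of a gene. With genes without a symbol included, 38.8% of peaks were downstream, and the cause was not tested. With only the downstream class limited to peaks within 10 kb of the gene end, the difference from all upstream genes was 7.86 percentage points for developmental transcription factors and 7.52 for sensory receptors; both lists have short gaps, so this filter raises their share by construction and supports nothing. Among the wider peaks, a smaller set, the difference in gap was 5.10 kb (-2.12 to 15.0), that of sensory receptors 1.68 percentage points (-0.44 to 5.13) and that of another peak within 10 kb 3.82 (-0.78 to 9.26). These values were near the main ones, 5.95 kb, 2.38 and 4.34, but their intervals included 0. No paired analysis was possible because each antibody has 1 library. Depth is unknown, and the IgG library was not analysed here.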
